A study of Mus musculus with 26 samples.

Results

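The genes described here are 40 factors of ribosome biogenesis, among them 5 subunits and initiation factors of RNA polymerase I. They were chosen by gene symbol from the deposited expression table, and all 40 symbols were found among its 55254. Messenger RNA was measured in 26 libraries, each made from the inner cell mass (ICM) of a single CD-1 mouse embryo by FLASH-seq, which reads whole transcripts from very small RNA inputs. Morulae at E2.75, from natural matings, were cultured in KSOM medium for 24 h in 1 of 4 conditions, and the outer cells were then removed by immunosurgery after removal of the zona pellucida. The groups were 6 ICMs with both LY294002 (10 µM) and FGF4 with heparin (1 µg/ml), called LY+FGF4, 7 ICMs with LY294002 alone (LY), 8 ICMs with FGF4 and heparin alone (FGF4) and 5 ICMs with the vehicle (DMSO). LY294002 inhibits PI3K, and FGF4 is the growth factor that directs cells of the ICM to primitive endoderm. Embryos of 5 litters had been mixed before they were shared out, so every library is a separate embryo of unknown litter, and PI3K activity is not part of these measurements.

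Ribosomes are built in the nucleolus. RNA polymerase I transcribes the precursor of the ribosomal RNAs, small nucleolar ribonucleoproteins (snoRNPs) guide its chemical modification, and a large set of assembly factors cuts and folds it while ribosomal proteins bind. PI3K signalling through mTOR and ERK signalling downstream of FGF receptors are both known to stimulate RNA polymerase I initiation, and MYC is known to activate many ribosome biogenesis genes through E-box sequences.

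Promoter sequences were looked up because LY and FGF4 act on pathways whose transcription factors, MYC and the ETS family, bind short known motifs. RefSeq promoters on GRCm38.p6, reaching from 250 bases before to 50 bases after each annotated start, were matched by symbol for 36 of the 40 members, all but Fbl, Npm1, Rrp12 and Bop1. The E-box CACGTG stood in 7 of the 36 (19.4%), against 10.8% of the promoters of all tested genes and 7.15% of all promoters. The ETS core CCGGAAGT, on either strand, stood in 10 of the 36 (27.8%), against 9.49% of the promoters of tested genes and 3.89% of all promoters. Matches with 8-base flanks are shown for the polymerase factors and for other members described later, with the motif or its reverse complement in capitals. Rrn3 is shown for its E-box nearest the start and for its ETS core, and Ltv1 for its E-box.
Rrn3 E-box (chr16:13780643-13780664, plus strand): gctctgctCACGTGggccgcgt
Pes1 E-box (chr11:3963969-3963990, plus strand): aggcagggCACGTGcgggagga
Ltv1 E-box (chr10:13193096-13193117, minus strand): tgtggaccCACGTGtggagctg
Rrn3 ETS core (chr16:13780685-13780708, plus strand): gcagcgccACTTCCGGggcgggta
Polr1c ETS core (chr17:46248072-46248095, minus strand): cttgacgtCCGGAAGTgaaggacg
Gar1 ETS core (chr3:129831425-129831448, minus strand): gccgccacACTTCCGGaaacgtcg
Nhp2 ETS core (chr11:51619742-51619765, plus strand): ttgaaaacCCGGAAGTgatgtcgg
Heatr1 ETS core (chr13:12395351-12395374, plus strand): gtgagaagCCGGAAGTtcctatga
Ebna1bp2 ETS core (chr4:118620788-118620811, plus strand): cgagaaaaCCGGAAGTgcggctat
Noc2l ETS core (chr4:156236005-156236028, plus strand): ttctgggcCCGGAAGTgcggcgca

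The whole 250 bases before the start are shown for 2 members whose levels are described later. Nip7 holds 1 ETS core, in capitals, and Rrp9 holds neither an E-box nor an ETS core.
Nip7 (chr8:107056627-107056876, plus strand): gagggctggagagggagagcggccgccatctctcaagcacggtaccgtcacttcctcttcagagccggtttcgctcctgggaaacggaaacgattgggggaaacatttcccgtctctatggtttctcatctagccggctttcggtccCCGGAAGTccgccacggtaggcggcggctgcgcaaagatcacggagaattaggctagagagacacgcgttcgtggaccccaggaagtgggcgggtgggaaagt
Rrp9 (chr9:106477059-106477308, plus strand): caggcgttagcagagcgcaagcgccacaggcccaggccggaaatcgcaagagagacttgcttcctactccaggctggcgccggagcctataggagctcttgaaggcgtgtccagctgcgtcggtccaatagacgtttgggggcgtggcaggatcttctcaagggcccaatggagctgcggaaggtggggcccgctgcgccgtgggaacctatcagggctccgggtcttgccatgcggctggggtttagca

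Of the other motifs searched on both strands, CCAAT stood in 36.1% of member promoters and 39.9% of those of tested genes, and GGGCGG in 72.2% and 67.4%. CACGCG stood in 33.3% and 18.7%, GCATGC in 2.78% and 10.7%, and the 10-base ZBTB33 motif in 0% and 1.25%. The 10 members with an ETS core had a median log2 fold change of -0.09 in FGF4 against DMSO, and the 26 without it -0.32. In LY against DMSO those with it had the lower median, -0.49 against -0.31, as they did in LY+FGF4 against FGF4 (-0.23 against -0.07) and in the pooled LY effect (-0.33 against -0.14). They were also lower in LY+FGF4 against DMSO (-0.27 against -0.19) and in the interaction (0.07 against 0.25). They were higher in LY+FGF4 against LY (0.11 against -0.02) and in the pooled FGF4 effect (0.0067 against -0.19). No difference between these medians was tested. The 7 members with an E-box had a median of -0.32 in LY against DMSO, and the 29 without it -0.33. Those with it were lower in LY+FGF4 against DMSO (-0.46 against -0.18) and in the pooled FGF4 effect (-0.18 against -0.04). In LY+FGF4 against FGF4 they were higher (-0.06 against -0.13). The medians were closer in LY+FGF4 against LY (0.02 against 0.06) and in FGF4 against DMSO (-0.29 against -0.28). So were those of the pooled LY effect (-0.27 against -0.24) and the interaction (0.18 against 0.14). A match says only that these letters occur in the window.

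**Figure D1:**
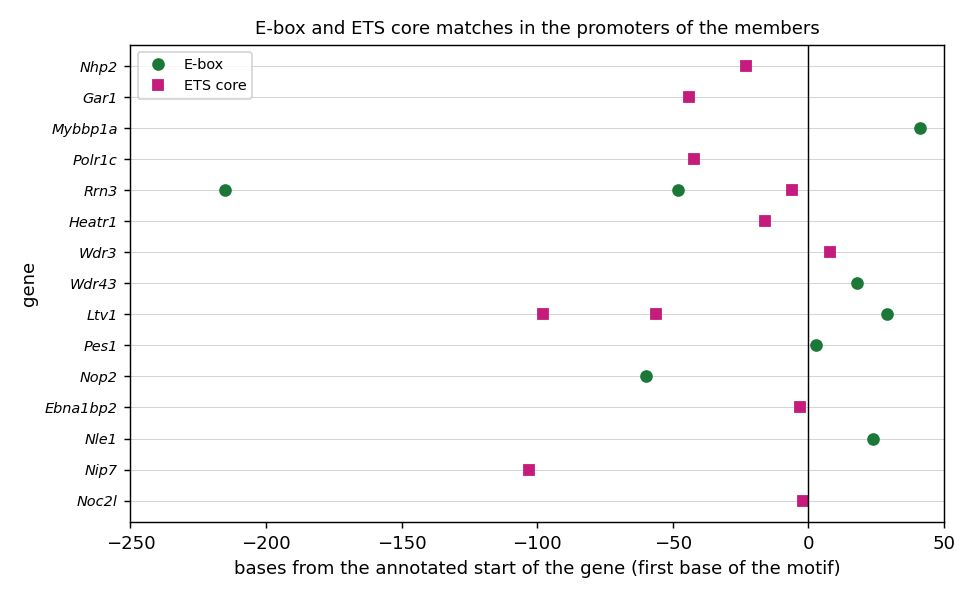
Positions of E-box (circles) and ETS core (squares) matches in the promoters of the members that hold at least 1, in bases from the annotated start. The ETS cores lie between 103 bases before and 8 bases after the start, and 5 of the 8 E-boxes lie after it.

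The values are TPM, the abundance of a transcript per unit length as a share of all transcripts in the library, so levels of different genes can be set side by side and the members' values are shares of a library's messenger RNA. The number of reads behind a library is unknown. All 40 members passed the filter on low values, which kept 12034 genes, and 39 were above 0 in every library (97.5%, against 41.2% of the tested genes). Noc3l, a factor of large subunit maturation, was listed at 0 in 1 LY+FGF4 and 1 FGF4 library. The members' mean TPM had a median of 130.7, against 20.9 for all tested genes, and ran from 13.2 for Rrp12 to 2358 for Npm1. Their spread between libraries of a group had a median residual SD of 0.56 on the log2(TPM + 1) scale, against 1.08 for all tested genes. The members were not compared with genes of a like level, so this difference may reflect their level.

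Libraries differed in how many genes reached a TPM of 1. The LY+FGF4 libraries listed 7486 to 9534 genes (median 8650.5), the LY libraries 9860 to 10215, the FGF4 libraries 8315 to 10871 and the DMSO libraries 10212 to 11367. Of the 6 libraries under 9000 genes, 4 were LY+FGF4 (replicates 2, 3, 5 and 8) and 2 were FGF4 (replicates 2 and 3). Marker lists also differed between groups. The 20 primitive endoderm markers summed to 1007 to 4168 TPM in LY+FGF4, 338 to 593 TPM in LY, 1905 to 5945 TPM in FGF4 and 967 to 1920 TPM in DMSO, and Sox7 was at 0 in all libraries of LY+FGF4, LY and DMSO. The 14 epiblast markers summed to 817 to 1552 TPM in LY+FGF4, 2067 to 2736 TPM in LY, 1175 to 2207 TPM in FGF4 and 2483 to 3039 TPM in DMSO, with Nodal at 0 in LY+FGF4, LY and DMSO. Much of each sum was Pou5f1, which alone had 538 to 1034, 936 to 1461, 950 to 1495 and 1350 to 1698 TPM in those groups. The epiblast sums need not follow the other markers: Nanog had medians of 7.12, 158, 8.485 and 186 TPM in the same order. The 24 trophectoderm markers, for the outer cells that immunosurgery removes, summed to 996 to 2863 TPM in LY+FGF4, 2138 to 3094 TPM in LY, 787 to 2184 TPM in FGF4 and 1549 to 2809 TPM in DMSO, and 7, 1, 4 and 1 of them were at 0 in those groups, Slc5a1 in each. Dab2 stands in both the primitive endoderm and the trophectoderm list. Fgfr2, in the trophectoderm list, had medians of 119, 2.79, 97.7 and 21.6 TPM in LY+FGF4, LY, FGF4 and DMSO. The trophectoderm list, and a score drawn from it, need not measure outer cells alone. The 12 oocyte-derived transcripts summed to 795 to 1310 TPM in LY+FGF4, 1659 to 3305 TPM in LY, 878 to 1953 TPM in FGF4 and 2324 to 3453 TPM in DMSO. Nearly all of each sum was Khdc3, which alone had 780 to 1291, 1629 to 3245, 876 to 1942 and 2268 to 3436 TPM in those groups. The sums therefore describe that gene rather than the list. Covariates were added in 2 fits described where they matter. The gene-number fit adds the number of genes a library listed, and the trophectoderm fit adds a trophectoderm score. LY+FGF4 did not overlap LY or DMSO in the number of genes listed. In comparisons of LY+FGF4 with either, the gene-number fit therefore cannot tell treatment and gene number apart. Beyond these fits, the part of these differences in the results was not tested. In a library of a whole ICM, fewer cells of a type and less RNA per cell cannot be told apart.

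Together the 40 members made up between 0.756% and 1.15% of the TPM of a library, with the lowest median in LY+FGF4. Their summed level was 7560 to 10752 TPM (median 8994) in LY+FGF4, 8903 to 10717 TPM (median 9615) in LY, 8535 to 10893 TPM (median 9676) in FGF4 and 10672 to 11529.8 TPM (median 11030.4) in DMSO. The ranges of all 3 treated groups reached just into that of DMSO. The mean log2(TPM + 1) of the members was 6.86 ± 0.32 in LY+FGF4 (SD, n = 6), 6.90 ± 0.14 in LY (SD, n = 7), 7.00 ± 0.19 in FGF4 (SD, n = 8) and 7.19 ± 0.09 in DMSO (SD, n = 5). On this measure the highest LY library, at 7.05, lay under the lowest DMSO library, at 7.11.

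**Figure D2:**
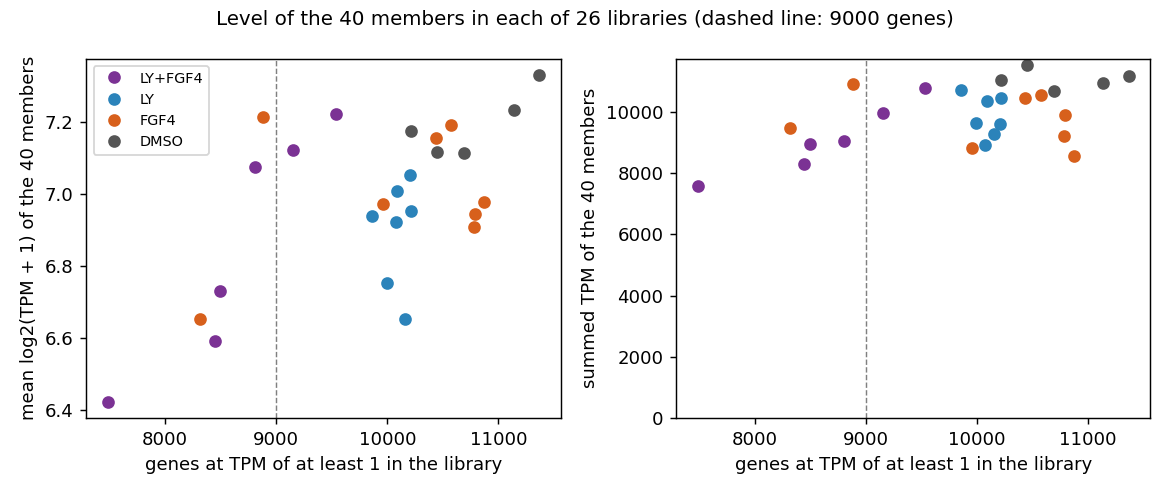
Mean log2(TPM + 1) of the 40 members (left) and their summed TPM (right) against the number of genes that reached a TPM of 1, 1 point per library, with LY+FGF4, LY, FGF4 and DMSO in separate colours. The LY+FGF4 libraries list the fewest genes and spread most widely on the left, from 6.42 to 7.22, and the DMSO libraries sit at 7.11 to 7.33.

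Each gene was tested with limma on log2(TPM + 1) in a fit of all 26 libraries and all 12034 genes, and a member was called where its Benjamini-Hochberg adjusted p was under 0.05. The comparisons against DMSO share the 5 DMSO libraries, and the pooled effects of LY and of FGF4 average 2 pairwise comparisons each, so the results are not independent of each other. Of the 40 members, 7 were called in at least 1 of 8 comparisons and 33 in none. The matching share of all tested genes is not given here, so this count cannot be set against it. Calls in each comparison are set against those of all tested genes below.

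**Figure D3:**
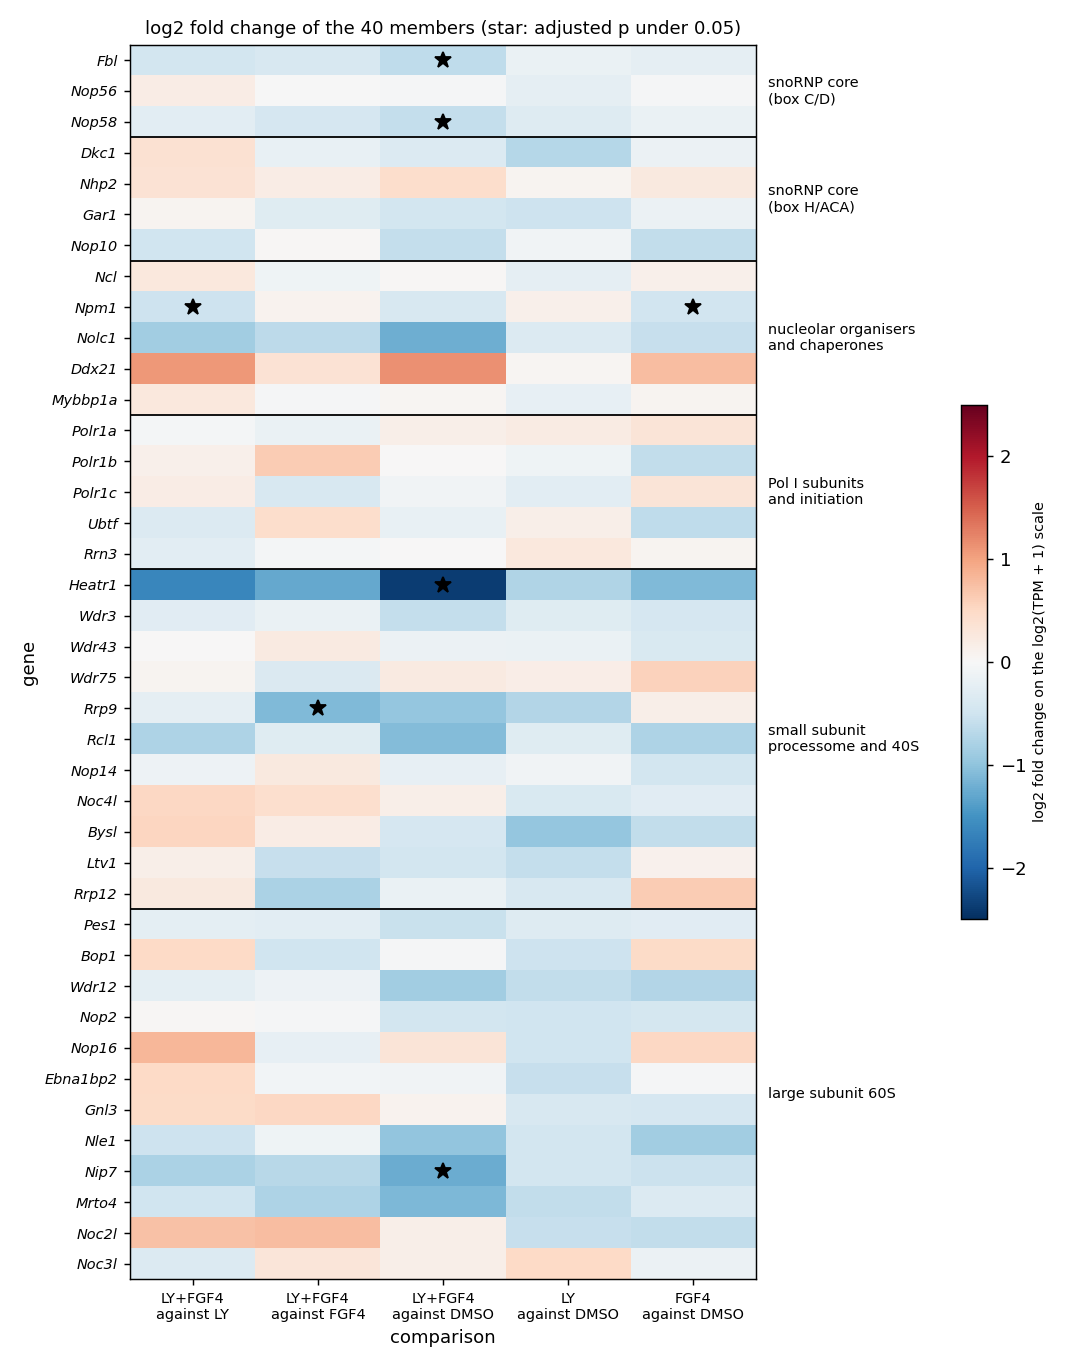
log2 fold change of the 40 members (rows, by role) in 5 pairwise comparisons (columns), on the log2(TPM + 1) scale. Stars mark adjusted p under 0.05 and fall on Npm1, Rrp9, Fbl, Nop58, Heatr1 and Nip7, all lower in the first-named group.

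Among the nucleolar organisers and chaperones, Npm1 (chr11:33152287-33163206, minus strand, GRCm38) was lower in ICMs cultured with FGF4. Npm1 is nucleophosmin, an abundant chaperone that holds the granular outer layer of the nucleolus together. Its level was 1628, 2002 and 2459.7 TPM (lowest, median and highest) in LY+FGF4, 2306, 3013 and 3585 TPM in LY, and 1355, 1948 and 2250.4 TPM in FGF4. The 5 DMSO ICMs had 2421, 2527, 2583, 2786 and 2993 TPM. All 8 FGF4 ICMs lay under all 5 DMSO ICMs, while LY+FGF4 and LY overlapped in part. In FGF4 against DMSO Npm1 fell by 0.49 on the log2 scale (SE 0.13, adjusted p = 0.0447), where 1 of 40 members and 2.44% of all tested genes were called, and 1.63% of all tested genes had every FGF4 library under every DMSO library. In LY+FGF4 against LY it fell by 0.53 (SE 0.13, adjusted p = 0.0148), the only call among the 40 there, against 6.30% of all tested genes. The call in LY+FGF4 against LY held with each library left out (adjusted p 0.00876 to 0.0441). It was lost in the gene-number fit (-0.45, adjusted p = 0.203), without the 6 libraries under 9000 genes (-0.35, adjusted p = 0.296), and with only the groups compared, library weights or no trend (adjusted p 0.0583, 0.0586 and 0.118 in that order).

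Pooled over both LY backgrounds, Npm1 fell by 0.51 with FGF4 (SE 0.09, adjusted p = 0.000584). This pooled call held with each of the 26 libraries left out in turn (adjusted p 0.00033 to 0.002), in the gene-number fit (-0.45, adjusted p = 0.0385), in the trophectoderm fit (-0.44, adjusted p = 0.0305) and without the 6 libraries under 9000 genes (-0.43, adjusted p = 0.0176). The pairwise call against DMSO was lost without any 1 of 11 of the 13 libraries, all but FGF4 replicates 6 and 8 (adjusted p 0.0291 to 0.141). With LY the direction was the other way, at 0.12 in LY against DMSO (SE 0.14, adjusted p = 0.918). Near-identical copies of Npm1 at other loci summed to 1.45% of its TPM.

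The other 4 organisers were not called in any comparison. Ncl encodes nucleolin, which binds the ribosomal RNA precursor, and had 114, 217 and 359 TPM (lowest, median and highest) in LY+FGF4, 121, 151 and 233 TPM in LY and 133, 208 and 310.1 TPM in FGF4. The DMSO ICMs had 178, 182, 189, 197 and 220.2 TPM for Ncl, inside the ranges of all 3 treated groups. Nolc1, which carries snoRNPs between nucleolus and Cajal body, had 72.2, 333 and 529 TPM in LY+FGF4, 259, 619 and 670.1 TPM in LY and 158, 537 and 805 TPM in FGF4. The DMSO ICMs had 403, 552.5, 707, 854 and 946 TPM for Nolc1. Its difference in LY+FGF4 against DMSO was -1.22 (SE 0.43, adjusted p = 0.0667). Ddx21, an RNA helicase of the nucleolus, had 16.9, 59.95 and 142 TPM in LY+FGF4, 14.7, 16.5 and 50.1 TPM in LY, 17.5, 41.6 and 70.4 TPM in FGF4 and 14.5, 14.8, 22.2, 28.2 and 29.2 TPM in DMSO. Its pooled FGF4 difference was 0.93 (SE 0.33, adjusted p = 0.0588), the largest positive one among the members.

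Of the 3 core proteins of box C/D snoRNPs, which methylate ribosomal RNA, Fbl and Nop58 were lower in LY+FGF4 and Nop56 was the steadiest of all 40 members, with a residual SD of 0.21. Fbl (chr7:28169710-28179269, plus strand) encodes fibrillarin, the methyltransferase itself. It had 207, 302 and 470.5 TPM in LY+FGF4, 389, 443 and 525 TPM in LY and 370.3, 426 and 516 TPM in FGF4. The DMSO ICMs had 467, 474, 485, 520.5 and 596 TPM, and 5 of the 6 LY+FGF4 ICMs lay under all of them. Fbl fell by 0.63 in LY+FGF4 against DMSO (SE 0.18, adjusted p = 0.0234), and pooled over LY backgrounds it fell by 0.35 with FGF4 (SE 0.12, adjusted p = 0.047). The Fbl call against DMSO was lost without LY+FGF4 replicate 2 or DMSO replicate 6 or 8 (adjusted p 0.00776 to 0.0698), and the pooled call was lost in 21 of the 26 fits that left out 1 library (adjusted p 0.0178 to 0.0963).

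Nop58 (chr1:59684971-59719044, plus strand) is a scaffold of the same particle and was, at a mean of 1265 TPM, second in level to Npm1. It had 718, 1019.9 and 1381 TPM in LY+FGF4, 938, 1169.7 and 1470.3 TPM in LY and 872, 1459 and 1814 TPM in FGF4. The DMSO ICMs had 1315, 1446, 1479, 1613 and 1638 TPM, and 1 of the 6 LY+FGF4 ICMs reached into that range. Nop58 fell by 0.59 in LY+FGF4 against DMSO (SE 0.17, adjusted p = 0.0301), and in LY+FGF4 against FGF4 its difference was -0.43 (SE 0.15, adjusted p = 0.124). The call against DMSO was lost without LY+FGF4 replicate 2 or 5 or DMSO replicate 6, 7, 8 or 9 (adjusted p 0.0114 to 0.075 over all 11 libraries). Its pooled LY difference was -0.38 (SE 0.11, adjusted p = 0.0544). Nop56, the partner scaffold, had 107, 152 and 209 TPM in LY+FGF4, 117, 129.7 and 169 TPM in LY, 126, 155 and 179 TPM in FGF4 and 143, 146, 151, 166 and 168 TPM in DMSO. Its difference in LY+FGF4 against DMSO was -0.03 (95% interval -0.41 to 0.36), and its gene overlaps Idh3b on the opposite strand.

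In the box H/ACA snoRNPs, which turn uridines of ribosomal RNA into pseudouridine, no member was called, and 8 of the 32 tests (4 members in 8 comparisons) had an unadjusted p under 0.05, against 17.7% of all tests of all genes. Dkc1, the pseudouridine synthase dyskerin, had 379, 496 and 532 TPM in LY+FGF4, 258, 344 and 740.5 TPM in LY and 252, 499.8 and 899 TPM in FGF4. The 5 vehicle ICMs stood at 394, 556, 686.5, 714 and 725 TPM. Dkc1 had the smallest p among the members in LY against DMSO, with a difference of -0.71 (SE 0.27, adjusted p = 0.358). Gar1, another core protein, had 64.9, 108 and 119 TPM in LY, under every DMSO ICM at 125, 127, 139, 152 and 157 TPM (-0.53, SE 0.28, adjusted p = 0.64), as for 1.54% of all tested genes. Nhp2, the RNA-binding core protein, ran the other way: all 6 LY+FGF4 ICMs, at 509 to 714 TPM, lay above all DMSO ICMs, at 404 to 480.0 TPM (0.44, SE 0.19, adjusted p = 0.134), as did 1.74% of all tested genes. Nop10, the smallest of these proteins, had a median of 64.8 TPM in LY+FGF4, 103 TPM in LY, 78.2 TPM in FGF4 and 107 TPM in DMSO, and its difference was -0.62 in FGF4 against DMSO (SE 0.30, adjusted p = 0.306).

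**Figure D4:**
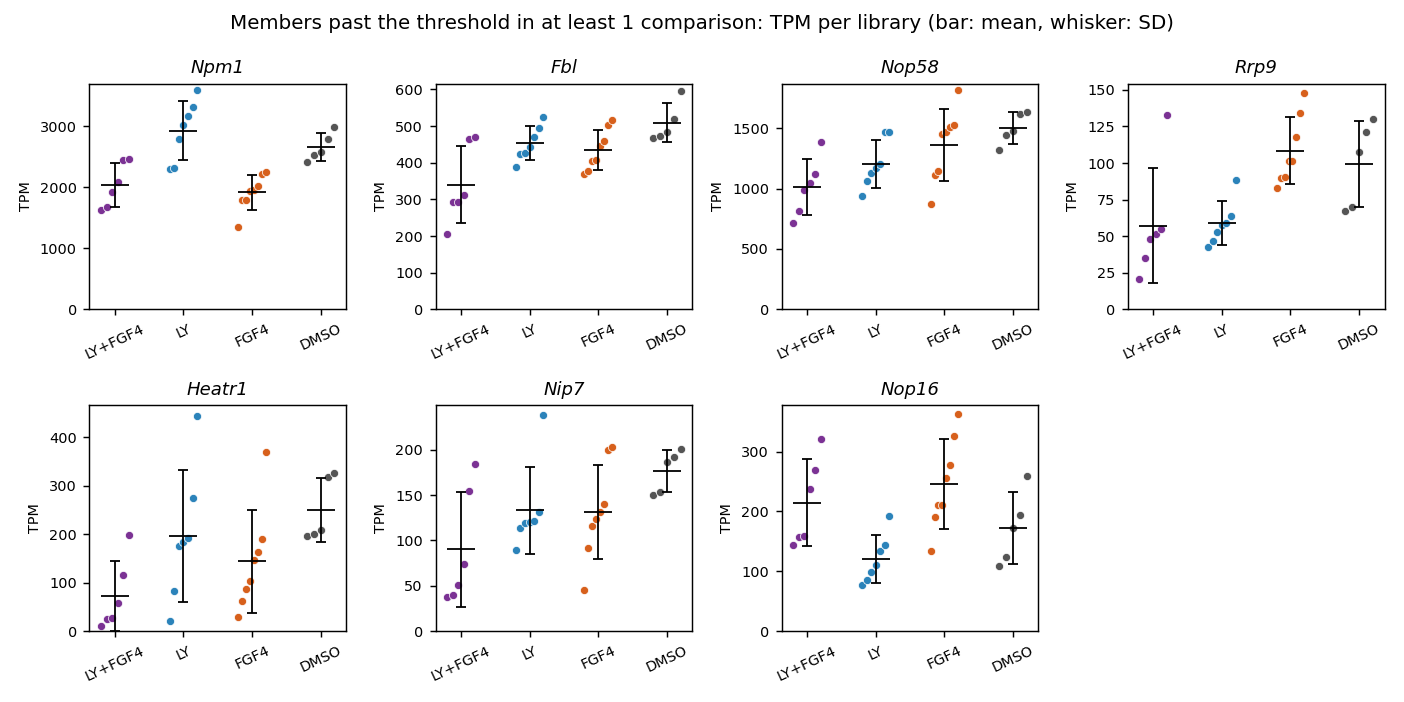
TPM of the 7 called members in each library, by group, with the mean (bar) and SD (whisker). FGF4 lies under DMSO for Npm1, both LY groups lie mostly under FGF4 and DMSO for Rrp9, and Heatr1 spreads from 10.3 to 199 TPM in LY+FGF4 against 197 to 326 TPM in DMSO.

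None of the 5 RNA polymerase I members was called in any comparison. Of their 40 tests (5 members in 8 comparisons), 5 had an unadjusted p under 0.05, against 17.7% of all tests of all genes. Their summed levels overlapped in all groups: 314 to 917 TPM in LY+FGF4, 548 to 805 TPM in LY, 492 to 754 TPM in FGF4 and 549 to 792 TPM in DMSO. Polr1a, the largest subunit, had 28.2, 43.2 and 154 TPM in LY+FGF4, 36.7, 55.3 and 84.7 TPM in LY, 28.5, 57.5 and 174 TPM in FGF4 and 24.7, 44.6, 48.3, 63.8 and 85.0 TPM in DMSO. Polr1b, the second largest subunit, had 49.8, 98.4 and 228 TPM in LY+FGF4, 76.0, 112 and 132 TPM in LY and 48.8, 74.1 and 101 TPM in FGF4. In DMSO the values were 91.3, 102, 106, 122 and 149 TPM, with 5 of the 8 FGF4 ICMs under all of them. The difference of Polr1b in FGF4 against DMSO was -0.62 (SE 0.30, adjusted p = 0.306).

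Polr1c, a subunit shared with RNA polymerase III, had 111, 164 and 177 TPM in LY+FGF4, 114, 135 and 154 TPM in LY, 118, 202 and 278 TPM in FGF4 and 139, 144, 165, 174 and 183 TPM in DMSO. Its difference in LY+FGF4 against FGF4 was -0.40 (SE 0.19, adjusted p = 0.243). Ubtf, which binds and opens the ribosomal RNA genes, had 87.9, 156 and 345 TPM in LY+FGF4, 155.0, 212 and 300.2 TPM in LY, 50.7, 142 and 239.7 TPM in FGF4 and 156, 160.4, 175, 208 and 283 TPM in DMSO. Rrn3, the initiation factor that PI3K and ERK signalling are known to regulate by phosphorylation, had 38.0, 139 and 248 TPM in LY+FGF4, 79.2, 164 and 193 TPM in LY, 59.3, 141 and 250.1 TPM in FGF4 and 77.6, 79.7, 106, 159 and 224 TPM in DMSO. The difference of Rrn3 in LY against DMSO was 0.27 (95% interval -0.52 to 1.06), and messenger RNA does not report its phosphorylation. In the gene-number fit Rrn3 was called higher in LY+FGF4 against FGF4, in LY+FGF4 against DMSO and in both pooled effects, and with weighted libraries Polr1b was called lower in FGF4 against DMSO. Between LY+FGF4 and DMSO the gene-number fit cannot tell treatment and gene number apart, and both pooled effects include these libraries. The group means of Rrn3 were 137 TPM in LY+FGF4, 149 TPM in LY, 136 TPM in FGF4 and 129 TPM in DMSO.

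**Figure D5:**
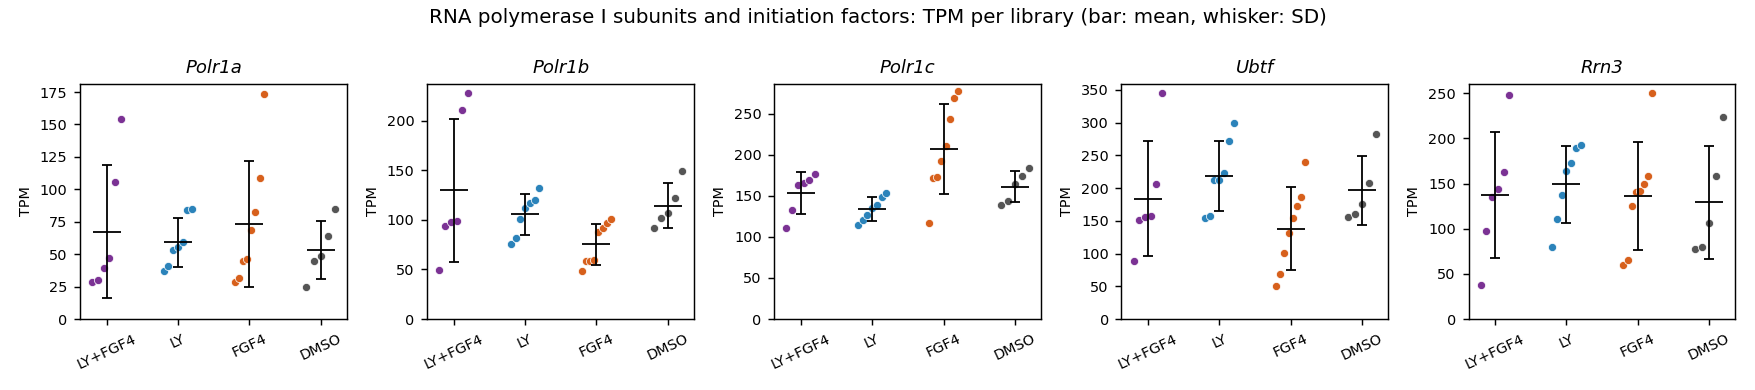
TPM of the 5 RNA polymerase I members in each library, by group, with the mean (bar) and SD (whisker). The groups overlap in every panel, and Polr1c reaches 278 TPM in FGF4 against 183 TPM in DMSO.

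A wider list of RNA polymerase I subunits and factors, 17 tested genes beside the members, was not all at the same level across groups. Pooled over LY backgrounds, 4 of the 17 fell with FGF4, against 8.63% of all tested genes, and none rose, against 4.39%, with a list median of -0.38 against -0.19 for all tested genes. Polr1d, a subunit shared with RNA polymerase III, had 63.0, 89.6 and 131 TPM in LY+FGF4, 145, 183 and 229 TPM in LY and 59.0, 90.0 and 124 TPM in FGF4, against 155 to 170.2 TPM in DMSO. No FGF4 or LY+FGF4 ICM reached the lowest ICM of LY or DMSO, and the pooled fall was 0.90 (SE 0.15, adjusted p = 0.000171). Cd3eap and Twistnb, both polymerase subunits, fell by 1.71 (SE 0.50, adjusted p = 0.0212) and 1.73 (SE 0.51, adjusted p = 0.0238), and Taf1d of the promoter factor SL1 by 0.80 (SE 0.25, adjusted p = 0.0323). Cd3eap had medians of 8.465 TPM in LY+FGF4, 51.4 TPM in LY, 35.6 TPM in FGF4 and 91.8 TPM in DMSO. Twistnb had 82.1, 123, 76.0 and 214 TPM in that order. In FGF4 against DMSO only Polr1d of the 17 was called, against 2.44% of all tested genes. Cd3eap was also called lower in LY+FGF4 against FGF4, where 3.55% of all tested genes were called.

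Among the 11 members of the small subunit processome and its maturation factors, Rrp9 was lower in ICMs cultured with LY and Heatr1 in LY+FGF4. Rrp9 (chr9:106475963-106485424, plus strand) binds the U3 snoRNP, which directs the first cuts of the precursor. It had 20.5, 49.7 and 133 TPM in LY+FGF4, 42.3, 57.8 and 88.6 TPM in LY, and 83.2, 101 and 148 TPM in FGF4. The 5 vehicle ICMs stood at 67.3, 70.0, 108, 121 and 130.2 TPM. All but 1 of the 6 LY+FGF4 ICMs, and 6 of the 7 LY ICMs, lay under the lowest DMSO ICM. Pooled over FGF4 backgrounds, Rrp9 fell by 0.92 with LY (SE 0.22, adjusted p = 0.0135), the only call among the 40, against 4.64% of all tested genes.

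The pooled call of Rrp9 held with each library left out in turn (adjusted p 0.00175 to 0.0349), and without the 6 libraries under 9000 genes the difference was -0.88. In the gene-number fit it was -0.66 and no longer passed (adjusted p = 0.232). Rrp9 was also the only member called in LY+FGF4 against FGF4, where it fell by 1.11 (SE 0.30, adjusted p = 0.0346), against 3.55% of all tested genes. That call was lost without LY+FGF4 replicate 2 or 8 or FGF4 replicate 3, 4, 5 or 8 (adjusted p up to 0.0853) and in the gene-number fit (-0.76, adjusted p = 0.338). In LY against DMSO its difference was -0.73 (SE 0.32, adjusted p = 0.494).

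Heatr1 (chr13:12395027-12440289, plus strand) is a processome protein also needed for precursor transcription, and it varied more within groups than any member but Noc3l. It had 10.3, 41.4 and 199 TPM in LY+FGF4, 20.3, 183 and 444 TPM in LY and 28.1, 125 and 371 TPM in FGF4. In DMSO the values were 197, 200.3, 209, 319 and 326 TPM. The lowest DMSO ICM lay above 5 of the 6 LY+FGF4 ICMs, 5 of the 7 LY ICMs and 7 of the 8 FGF4 ICMs, and 1 LY and 1 FGF4 ICM lay above the highest DMSO ICM. Heatr1 fell by 2.38 in LY+FGF4 against DMSO (SE 0.68, adjusted p = 0.0253), and pooled over LY backgrounds it fell by 1.36 with FGF4 (SE 0.44, adjusted p = 0.0404). In the gene-number fit those differences were -0.59 (adjusted p = 0.824) and -0.47 (adjusted p = 0.709), and the pooled call was lost in 17 of the 26 fits that left out 1 library (adjusted p 0.00886 to 0.0744). The call against DMSO was lost without LY+FGF4 replicate 2, DMSO replicate 6 or DMSO replicate 9. Heatr1 overlaps Lgals8 on the opposite strand.

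The other 9 small subunit members were not called in any comparison. Ltv1, which helps carry the small subunit out of the nucleus, had 53.6, 79.2 and 127.0 TPM in LY+FGF4, 40.2, 81.8 and 108 TPM in LY, 94.5, 113 and 179 TPM in FGF4 and 81.2, 90.6, 112, 141 and 148 TPM in DMSO. Its pooled LY difference was -0.58 (SE 0.20, adjusted p = 0.0842). Bysl, an assembly factor first described as bystin, had a median of 29.1 TPM in LY+FGF4, 16.2 TPM in LY, 24.2 TPM in FGF4 and 36.3 TPM in DMSO. Bysl overlaps Ccnd3, which averaged 188 TPM against 26.95 TPM for Bysl, on the opposite strand, and whether the authors' counting used strand is not given in the sources used here. In LY against DMSO, 10 of the 11 small subunit members had a negative difference, with a median of -0.38.

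In a wider list of 43 small subunit processome factors, pooled over LY backgrounds 3 rose and 3 fell with FGF4, near the shares of all tested genes (4.39% higher and 8.63% lower), with a list median of 0.09 against -0.19. Bms1, a GTPase of the processome, had 131, 215 and 446 TPM in LY+FGF4, 20.2, 50.97 and 144 TPM in LY, 60.1, 69.4 and 251 TPM in FGF4 and 63.4 to 112 TPM in DMSO, and rose in LY+FGF4 against LY by 2.16 (SE 0.41, adjusted p = 0.00218). Wdr46, a scaffold protein of the processome, was listed at 0 in at least 1 LY+FGF4 ICM. It had a median of 4.80 TPM in LY+FGF4, 33.2 TPM in LY, 45.5 TPM in FGF4 and 66.4 TPM in DMSO, and, pooled over FGF4 backgrounds, fell by 1.89 with LY (SE 0.49, adjusted p = 0.0226).

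Among the 12 members of large subunit assembly, Nip7 was lower in LY+FGF4 and Nop16 was higher with FGF4. Nip7 (chr8:107056877-107060931, plus strand), a large subunit assembly factor known from yeast, had 37.0, 62.2 and 185 TPM in LY+FGF4, 89.1, 120.2 and 238 TPM in LY and 45.5, 127 and 203 TPM in FGF4. The 5 vehicle ICMs stood at 149.9, 153, 186, 192 and 201 TPM, and 4 of the 6 LY+FGF4 ICMs lay under all of them. Nip7 fell by 1.24 in LY+FGF4 against DMSO (SE 0.38, adjusted p = 0.0394). That call was kept only without LY+FGF4 replicate 6 or 7 and lost without any 1 of the other 9 libraries of the comparison (adjusted p 0.0102 to 0.0901).

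Nop16 (chr13:54584185-54590090, minus strand), also a large subunit factor known from yeast, had 144, 198 and 320.2 TPM in LY+FGF4, 77.3, 111 and 193 TPM in LY and 133, 233 and 363 TPM in FGF4. In DMSO the values were 109, 123, 173, 194 and 259 TPM. Pooled over LY backgrounds it rose with FGF4 by 0.68 (SE 0.19, adjusted p = 0.0177), with each library left out in turn as well (adjusted p 0.00784 to 0.0453). It was the only member that rose past the threshold in any comparison. The call was lost in the gene-number fit (0.25, adjusted p = 0.604), in the trophectoderm fit (0.40, adjusted p = 0.356) and without the 6 libraries under 9000 genes (0.57, adjusted p = 0.108).

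Pes1, Bop1 and Wdr12 encode the PeBoW complex, whose 3 proteins work together in processing the large subunit RNAs, and none of the 3 was called. Pes1 had 73.5, 97.9 and 155 TPM in LY+FGF4, 102, 129 and 135 TPM in LY, 88.5, 123 and 151 TPM in FGF4 and 139, 145, 155, 164 and 164 TPM in DMSO. Every LY ICM lay under every DMSO ICM for Pes1, as for 1.54% of all tested genes, with a difference of -0.32 (SE 0.20, adjusted p = 0.747). Bop1 had 31.6, 56.0 and 93.3 TPM in LY+FGF4, 30.3, 38.0 and 53.5 TPM in LY, 52.9, 76.8 and 109.7 TPM in FGF4 and 46.8, 55.5, 56.0, 60.1 and 63.9 TPM in DMSO. Its pooled differences were -0.51 with LY (SE 0.20, adjusted p = 0.134) and 0.49 with FGF4 (SE 0.20, adjusted p = 0.102). Wdr12 had 16.9, 84.8 and 168 TPM in LY+FGF4, 38.9, 80.9 and 166 TPM in LY, 46.6, 65.5 and 125 TPM in FGF4 and 91.0, 126, 127, 129 and 138 TPM in DMSO. The 3 members of the complex thus had different orders of groups, with Bop1 highest in FGF4 and Pes1 and Wdr12 highest in DMSO by median.

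Other large subunit members with small p were not called. Ebna1bp2, needed for processing of the large subunit RNAs in yeast, had 211, 359 and 594 TPM in LY+FGF4, 163, 244 and 413 TPM in LY, 254, 380 and 465 TPM in FGF4 and 294, 341, 349, 437 and 485 TPM in DMSO. Its difference in LY against DMSO was -0.58 (SE 0.24, adjusted p = 0.41). Noc2l had 69.9, 190.1 and 261 TPM in LY+FGF4, 79.2, 88.1 and 138 TPM in LY, 46.1, 97.0 and 199 TPM in FGF4 and 108, 133, 162, 173 and 186 TPM in DMSO. Gnl3, the nucleolar GTPase nucleostemin, had a median of 212 TPM in LY+FGF4, 136 TPM in LY, 145 TPM in FGF4 and 196 TPM in DMSO. In LY against DMSO 11 of the 12 large subunit members had a negative difference, with a median of -0.50. In a wider list of 45 large subunit factors, 4 rose and 2 fell with FGF4 pooled over LY backgrounds, against 4.39% and 8.63% of all tested genes, among them Wdr74, which rose by 0.85 (SE 0.17, adjusted p = 0.000952), and the large ATPase Mdn1, which rose by 1.65 (SE 0.40, adjusted p = 0.00609). Mdn1 had medians of 24.1 TPM in LY+FGF4, 22.7 TPM in LY, 76.0 TPM in FGF4 and 6.76 TPM in DMSO. Mdn1 was called in FGF4 against DMSO and not in LY+FGF4 against LY.

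Set against the background, LY alone gave no call and the most one-sided differences. In LY against DMSO 0 of 40 members were called by limma, against 0.374% of all tested genes, and at an unadjusted p under 0.05 it was 0 higher and 4 lower (Dkc1, Ebna1bp2, Rrp9 and Ltv1), against 2.81% higher and 5.78% lower among all tested genes. In the same comparison 32 of the 40 members had a negative difference (80%), against 57.1% of all tested genes, with a median of -0.32 against -0.10. The groups did not overlap for Gar1 and Pes1, both lower in LY, which is 5% of the members, while 1.54% of all tested genes had every LY library under every DMSO library. The median of the members lay between -0.38 and -0.26 with each library left out in turn, and was -0.17 in the gene-number fit and -0.21 with a replicate block. In FGF4 against DMSO the unadjusted counts were 0 higher and 4 lower, against 6.21% and 9.29%.

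In LY+FGF4 against DMSO 4 of 40 members were called (10%), Fbl, Nop58, Heatr1 and Nip7, all lower, against 9.50% of all tested genes in either direction and 7.30% lower. At an unadjusted p under 0.05 it was 2 higher and 10 lower, against 6.04% and 18.7% of all tested genes. The median of the members was -0.19, against -0.37 for all tested genes. All 4 calls were lost without the 6 libraries under 9000 genes, where LY+FGF4 keeps 2 ICMs: Fbl was then at -0.45 (adjusted p = 0.192), Nop58 at -0.26 (adjusted p = 0.506), Heatr1 at -1.76 (adjusted p = 0.235) and Nip7 at -0.05 (adjusted p = 0.946). Without LY+FGF4 replicate 2, the library that listed fewest genes, all 4 were lost too (adjusted p 0.059, 0.075, 0.0659 and 0.0901 in that order). All 4 were also lost in the gene-number fit, with Fbl at -0.60 (adjusted p = 0.304), Nop58 at -0.46 (adjusted p = 0.441) and Nip7 at -0.35 (adjusted p = 0.822) beside the value of Heatr1 given before. With 2 ICMs left, Ddx21 was called higher in LY+FGF4 against DMSO, and Bop1, Ddx21 and Ebna1bp2 in LY+FGF4 against LY. The member median in LY+FGF4 against LY was then 0.35, against 0.03 in all libraries.

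Pooled over LY backgrounds, 4 of 40 members were called with FGF4 (10%), Npm1, Heatr1 and Fbl lower, against 8.63% of all tested genes, and Nop16 higher, against 4.39%. The members' median was -0.07, against -0.19 for all, but 0.13 in the gene-number fit and 0.06 both in the trophectoderm fit and without the 6 libraries under 9000 genes. Pooled over FGF4 backgrounds, 12 members had an unadjusted p under 0.05 with LY, all lower, against 14.4% of all tested genes lower and 4.79% higher, and 1 of them, Rrp9, was called. The effects of LY and FGF4 did not differ by background past the threshold for any member: 0 of 40 were called for the interaction, the LY effect with FGF4 minus that without it, against 0.0499% of all tested genes. At an unadjusted p under 0.05 there were 2 higher, Noc2l at 1.35 (SE 0.43, adjusted p = 0.539) and Gnl3 at 0.90 (SE 0.43, adjusted p = 0.803), and 0 lower, against 2.25% and 3.78% of all tested genes. Polr1b was next, at 0.75 (SE 0.41, adjusted p = 0.855).

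The cytosolic ribosomal proteins, which these factors assemble with RNA, were mostly lower with FGF4. Pooled over LY backgrounds, 40 of 79 fell, against 8.63% of all tested genes, and 2 rose, against 4.39%, with a list median of -0.45 against -0.19. How far these counts depend on gene number, the trophectoderm score or single libraries is not given here. In LY against DMSO 0 of 79 were called by limma, with 6 higher and 0 lower at an unadjusted p under 0.05. Rps10 had a median of 154 TPM in LY+FGF4, 296 TPM in LY, 182 TPM in FGF4 and 352 TPM in DMSO, and fell by 0.96 with FGF4 (SE 0.14, adjusted p = 6.72e-05). Rpl10a had a median of 901 TPM in LY+FGF4, 1780.1 TPM in LY, 714 TPM in FGF4 and 1228 TPM in DMSO, and fell by 0.88 (SE 0.13, adjusted p = 6.53e-05). Rpsa, named after its values were seen, rose by 1.34 (SE 0.23, adjusted p = 0.000291). Ribosomal protein genes have many near-identical copies, among which the authors' counting may have split reads. Of the 12 genes of the MYC network, Myc fell by 3.07 with FGF4 (SE 0.76, adjusted p = 0.00775) and the other 11 were not called. Myc had a median of 33.4 TPM in LY+FGF4, 89.0 TPM in LY, 8.93 TPM in FGF4 and 153 TPM in DMSO. Its lowest ICM was listed at 0 in LY+FGF4 and in FGF4. Of the RNA exosome, which trims ribosomal RNA precursors, 3 of 14 rose with FGF4, against 4.39% of all tested genes, and none fell. Of 10 snoRNP partners 1 fell, near the 8.63% of all tested genes.

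A feature that the choice of members did not use is that some of these genes hold snoRNA genes on the same strand between their start and end. Whether each lies in an intron was not checked. In GENCODE annotation on GRCm38, 6 of the 40 members (15%) hold 19 snoRNAs, against 259 of 21951 protein-coding genes (1.18%) that hold any. Nop56 holds 5, Nop58 holds 4, Ncl, Wdr43 and Gnl3 hold 3 each and Dkc1 holds 1. Of the 19, 9 were listed at 0 in every library. The labels give the molecule as polyadenylated RNA, which does not include mature snoRNAs, so no snoRNA level is given.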

How the data were processed

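Messenger RNA of single ICMs was compared in 4 groups, taken from the treatment labels. The authors deposited 1 table of TPM per gene symbol. Reads were trimmed and de-duplicated per the labels, and the submitters' processing notes name STAR, RSEM and mm10. For the versions, the annotation and the use of strand the sources used here give nothing. TPM keeps no read number, so depth and counting error are unknown. The p-values weigh group differences against the spread between libraries. With 1 library per embryo, differences between embryos and technical differences cannot be told apart in that spread.

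The filter kept genes that reached a TPM of 1 in 5 or more libraries, which left 12034. They were fitted on the log2(TPM + 1) scale by limma (version 3.58.1, in R 4.3.3), with 1 mean per group, the trend and robust options, two-sided tests and Benjamini-Hochberg adjustment over all of them. Fold changes on that scale understate changes of low genes. Pooled effects average a contrast over both backgrounds. The script was tested on simulated data. Named members are those past the threshold, or the 3 of smallest p where fewer pass, together with 15 members with well-known roles. From other lists up to 4 called genes by smallest p were named, and Rpsa beyond that. Ltv1, Gar1, Nhp2, Bysl and others were described after their values were seen. The members and lists were chosen with earlier results of these data known. Alternatives were other pseudocounts, filters, scalings, fits, covariates, a replicate block and leaving out libraries. Their results are given for the members only, not for the wider lists or their genes. Loci are from GENCODE M21 on GRCm38 and promoters from RefSeq on GRCm38.p6, the first entry where a gene had several. Copies were sought with BLAST 2.17.0.

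Replicate numbers repeat between groups. In 31 pairs of libraries with the same number the correlation of residuals had a median of -0.00406 and none exceeded 0.1, so the numbers were not used as pairs.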

Additional observations from a re-analysis of the deposited data

Results flagged for a closer look

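Single ICMs stood apart from their group for 4 members, in a comparison of the gap to the nearest ICM with the range of the group. Chance flags about 1 in 20 groups, and 76 pairs of gene and group were looked at. Rrp9 was at 133 TPM in LY+FGF4 replicate 3, with the next ICM of the group at 55.1 TPM. Heatr1 was at 371 TPM in FGF4 replicate 6, with the next at 190 TPM. Nip7 was at 238 TPM in LY replicate 6, with the next at 131 TPM. Wdr12 was lowest in DMSO replicate 6, at 91.0 TPM, with the next at 126 TPM.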

How the results depend on the processing

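Depth is unknown, and 1 ICM is 1 replicate. No member past the threshold changed direction among the alternatives run, but 3 member medians near 0 changed sign. The interaction count was 0 under all alternatives. Counts of called members in LY+FGF4 against LY (1 as reported) were 0 with only the groups compared, without the trend and robust options, with library weights and in the gene-number fit, and 3 without libraries under 9000 genes. In LY+FGF4 against FGF4 (1) they were 0 with no filter, only the groups compared, library weights and without libraries under 9000 genes, and in the gene-number fit the 1 call was Rrn3 in place of Rrp9. In LY+FGF4 against DMSO (4) they were 2 with only the groups compared and with library weights, 1 without trend (Heatr1), 1 in the gene-number fit (Rrn3) and 1 without libraries under 9000 genes (Ddx21), and 0 with the trophectoderm score as a covariate. In FGF4 against DMSO (1) they were 0 with pseudocount 0.1, no filter, median-of-ratios scaling, no trend, genes listed and the trophectoderm score, and 2 with library weights; in LY against DMSO (0) they were 1 with library weights. For the pooled FGF4 effect (4) they were 2 with no filter, no trend and genes listed, and 1 with the trophectoderm score. Member medians without libraries under 9000 genes were 0.35 in LY+FGF4 against LY, 0.17 in LY+FGF4 against FGF4 and 0.40 for the interaction, and -0.027 in FGF4 against DMSO with the trophectoderm score. The pooled LY median, -0.28 as reported, was -0.13 in the gene-number fit, -0.10 without libraries under 9000 genes and -0.12 with a replicate block. The pooled FGF4 median (-0.07) was positive in the gene-number fit, the trophectoderm fit, without libraries under 9000 genes and with a replicate block (0.028 to 0.13), and that of LY+FGF4 against LY (0.03) ran from -0.05 to 0.13 with 1 library left out. TMM scaling is not reported, since it is made for counts. The cause was not tested.

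With a replicate block, which the numbers do not support as pairing, counts were 0 in LY+FGF4 against FGF4, LY+FGF4 against DMSO, FGF4 against DMSO and the pooled LY effect, and 1 (Npm1) for the pooled FGF4 effect. Leaving out 1 library at a time, counts ranged from 1 to 4 in LY+FGF4 against LY, 0 to 2 in LY+FGF4 against FGF4, 0 to 5 in LY+FGF4 against DMSO, 0 to 0 in LY against DMSO, 0 to 1 in FGF4 against DMSO, 1 to 2 for pooled LY and 2 to 5 for pooled FGF4.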
